A study of Mus musculus with 22 samples.

Results

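The genes described here are p53 and 9 genes that p53 is known to switch on or to be restrained by: Trp53, Ccng1, Phlda3, Cdkn1a, Mdm2, Bax, Trp53inp1, Sesn2, Eda2r and Btg2. Every probe set that the platform annotation assigns to 1 of these 10 symbols was taken, which gave 16 probe sets for 8 genes, out of 45101 probe sets and 18194 genes. Trp53 itself and Bax are not listed in the annotation used and were not analysed here. Livers of 22 mice were measured, each on 1 Affymetrix array.

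All 5 groups in the labels were bred from Trim24+/- Rara+/- intercrosses on a mixed C57BL/6 and 129/Sv background. The 5-week-old mice comprised 4 WT (wild-type) animals, 4 with both Trim24 alleles disrupted (Trim24-/-) and 4 Trim24-/- Rara+/- animals, which also lack a single allele of Rara, the gene of retinoic acid receptor alpha. The 14-week-old mice comprised 5 WT and 5 Trim24-/- animals. The Trim24 disruption is present in every cell of the animal, so liver cells and the rest of the body are mutant alike. Animals are named below by the end of their titles.

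The p53 protein is a transcription factor that is kept scarce by ubiquitin ligases and is stabilised after DNA damage, oncogene activity or nutrient stress. Its targets halt the cell cycle, repair damage, lower growth signals, promote cell death, or feed back on p53 itself. Trim24 has been described as a ubiquitin ligase that targets p53, and it also binds the retinoic acid receptor alpha.

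All 22 arrays had the same trimmed mean signal (100.001). The median signal was 12.6 to 16.1 at 5 weeks and 19.7 to 25.9 at 14 weeks, and hepatocyte markers were high on every array (mean log2 level of 7 genes 12.45 to 13.07). The Trim24 probe set did not report the disruption: its mean signal was 317 ± 111 (SD, n = 4) in WT and 363 ± 84.7 (SD, n = 4) in Trim24-/- livers at 5 weeks, and 168 ± 24.2 (SD, n = 5) against 235 ± 59.3 (SD, n = 5) at 14 weeks. No source used here places this probe set relative to the disruption, so it does not check the labels. The values are bulk signals, so fewer cells of a type and less RNA per cell cannot be told apart.

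p53 binds DNA as a tetramer on paired copies of a decamer motif. The windows shown here are those of Ccng1, Phlda3, the upstream start of Cdkn1a, and Mdm2, the feedback inhibitor. They are the 250 bases before the transcription start from RefSeq (GRCm38.p6), written 5′ to 3′ on the strand of the gene, with exact matches to the p53 decamer in capitals. The decamer reads the same on both strands, so 1 search covers both.
Ccng1, chr11:40755287-40755536, minus strand: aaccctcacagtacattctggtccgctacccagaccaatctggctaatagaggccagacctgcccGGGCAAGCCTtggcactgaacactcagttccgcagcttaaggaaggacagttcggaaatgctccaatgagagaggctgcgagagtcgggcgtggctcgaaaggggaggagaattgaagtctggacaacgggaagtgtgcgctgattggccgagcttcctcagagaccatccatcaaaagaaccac
Cdkn1a, upstream start, chr17:29090729-29090978, plus strand: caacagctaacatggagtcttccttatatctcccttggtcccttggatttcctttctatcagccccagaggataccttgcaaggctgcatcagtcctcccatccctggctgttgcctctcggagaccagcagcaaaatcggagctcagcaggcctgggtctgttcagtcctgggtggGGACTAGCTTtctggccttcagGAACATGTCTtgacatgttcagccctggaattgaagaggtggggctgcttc
Mdm2, chr10:117710759-117711008, minus strand: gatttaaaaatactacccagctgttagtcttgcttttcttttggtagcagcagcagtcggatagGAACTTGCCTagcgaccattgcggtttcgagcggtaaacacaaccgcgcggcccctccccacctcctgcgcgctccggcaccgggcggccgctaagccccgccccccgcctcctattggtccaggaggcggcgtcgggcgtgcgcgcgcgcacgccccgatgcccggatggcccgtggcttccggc
Phlda3, chr1:135765835-135766084, plus strand: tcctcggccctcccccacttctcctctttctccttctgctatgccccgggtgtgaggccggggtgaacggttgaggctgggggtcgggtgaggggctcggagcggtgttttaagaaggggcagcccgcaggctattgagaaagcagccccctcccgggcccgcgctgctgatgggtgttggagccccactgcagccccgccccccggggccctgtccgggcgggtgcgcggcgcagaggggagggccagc

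The Ccng1 window holds the decamer GGGCAAGCCT 185 bases before the start, the Cdkn1a window holds GGACTAGCTT at 73 and GAACATGTCT at 51 bases, and the Mdm2 window holds GAACTTGCCT at 186 bases. The Phlda3 window has no exact match, nor have those of Eda2r, Btg2, Sesn2 or the second Cdkn1a start. Of 32851 promoter windows of this length, 2341 (7.13%) hold at least 1 exact decamer, against 3 of the 8 windows of these genes. A pair, meaning an exact decamer with another within 13 bases that departs from the motif by at most 1 letter outside its core C and G, is present in 166 windows (0.505%), those of Ccng1 and the upstream Cdkn1a start among them. Such matches describe letters only, and a window without one says nothing of p53 binding elsewhere in the gene. Windows were matched by symbol for 7 of the 8 measured genes.

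In 14-week livers lacking Trim24, 2 of the 8 genes were called higher and none lower: Ccng1 and Phlda3. A gene is called where limma's adjusted p (Benjamini-Hochberg, over all 18194 genes) is under 0.05, and changes are differences of log2(signal + 16) with their standard errors. Over all genes, 0.181% were called higher and 0.0605% lower in this comparison. The median change of the 8 genes was 0.59, against 0.0012 for all genes, and 7 of 8 were positive. Unadjusted p was under 0.05 for 4 of 8, against 8.23% of all genes. The groups did not overlap, with Trim24-/- higher, for 3 of 8 genes (Ccng1, Phlda3 and Cdkn1a), against 1.07% of all genes.

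Ccng1 encodes cyclin G1, a direct p53 target that brings a phosphatase subunit to Mdm2. At 14 weeks its signal was 251, 243, 266, 319.7 and 289 in WT samples liver_616WT, liver_611WT, liver_613WT, liver_464WT and liver_393WT. In Trim24-/- samples liver_648M, liver_466M, liver_463M, liver_411M and liver_395M it was 606, 597, 629.7, 479 and 738. The lowest mutant liver stood well above the highest WT liver. The change was 1.11 ± 0.13 (SE; 2.15-fold on the log2(signal + 16) scale; limma adjusted p = 0.00237), and the gene ranked 13 of 18194 by p. All 3 Ccng1 probe sets moved together. In a fit over all 45101 probe sets the others changed by 1.10 ± 0.18 (limma adjusted p = 0.0414) and 1.28 ± 0.23 (limma adjusted p = 0.0842).

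Phlda3 encodes a small pleckstrin-homology protein that competes with the kinase Akt for membrane lipids and so dampens a survival signal. Its signal at 14 weeks was 34.3, 39.3, 28.7, 46.9 and 34.9 in the WT animals, in the order used for Ccng1. In the mutants it was 123, 205, 118, 80.6 and 219. Samples liver_466M and liver_395M were the highest and liver_411M the lowest, and no mutant reached down to the WT range. The change was 1.58 ± 0.22 (SE; 2.98-fold; limma adjusted p = 0.0113), rank 22 by p. Phlda3 has 1 probe set.

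Cdkn1a encodes p21, the cyclin-dependent kinase inhibitor through which p53 halts the cell cycle. On the brighter of its 2 probe sets, WT signals at 14 weeks were 105, 148, 93.6, 22.9 and 62.2, and mutant signals were 236, 579, 284, 173 and 562. The groups did not overlap, but both spread widely: the SD of the log2 level was 0.79 in WT and 0.74 in Trim24-/-. The change of 1.91 ± 0.40 (SE) missed the threshold (limma adjusted p = 0.103). The dimmer probe set read 9.62, 23.7, 35.3, 3.59 and 4.01 in WT and 151, 118, 108, 53.2 and 178 in the mutants, also without overlap, but 3 of the 5 WT values lie under the pseudocount of 16. Its change was 2.17 ± 0.32 (SE) and passed in the fit over all probe sets (limma adjusted p = 0.0249). The mean of both probe sets also passed (2.04, limma adjusted p = 0.0273), so the call for Cdkn1a depends on which probe set stands for the gene. Both of these calls draw on WT values near background, so their size depends in part on the pseudocount.

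Eda2r encodes a TNF-receptor family member that binds ectodysplasin A2. Its WT signals at 14 weeks were 14.7, 13.9, 21.4, 10.9 and 7.41, near or below the pseudocount of 16. Mutant signals were 39.8, 39.4, 33.8, 20.6 and 63.3. Only mutant sample liver_411M fell within the WT range. The change was 0.87 ± 0.19 (SE; limma adjusted p = 0.117), and it passed when all 22 arrays shared 1 estimate of the spread (limma adjusted p = 0.00755). For a gene this dim the size rests on the pseudocount: 1.45 with a pseudocount of 1 and 0.40 with 64.

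The other members did not pass. Mdm2, the ubiquitin ligase that degrades p53 and is itself induced by it, changed by 0.31 ± 0.18 (SE; limma adjusted p = 0.702), with WT signals of 156 to 286 and mutant signals of 198 to 329. Trp53inp1, a stress protein of autophagy and cell death, changed by 0.15 ± 0.26 (SE; limma adjusted p = 0.925). Btg2, an antiproliferative partner of the mRNA deadenylase complex, changed by 0.13 ± 0.25 (SE; limma adjusted p = 0.939). Sesn2, a leucine sensor that restrains mTORC1, stood at -0.25 ± 0.18 (SE; limma adjusted p = 0.780). Each of these 4 genes overlapped between the groups. Both Btg2 and Trp53inp1 change sign when single animals are left out.

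**Figure D1:**
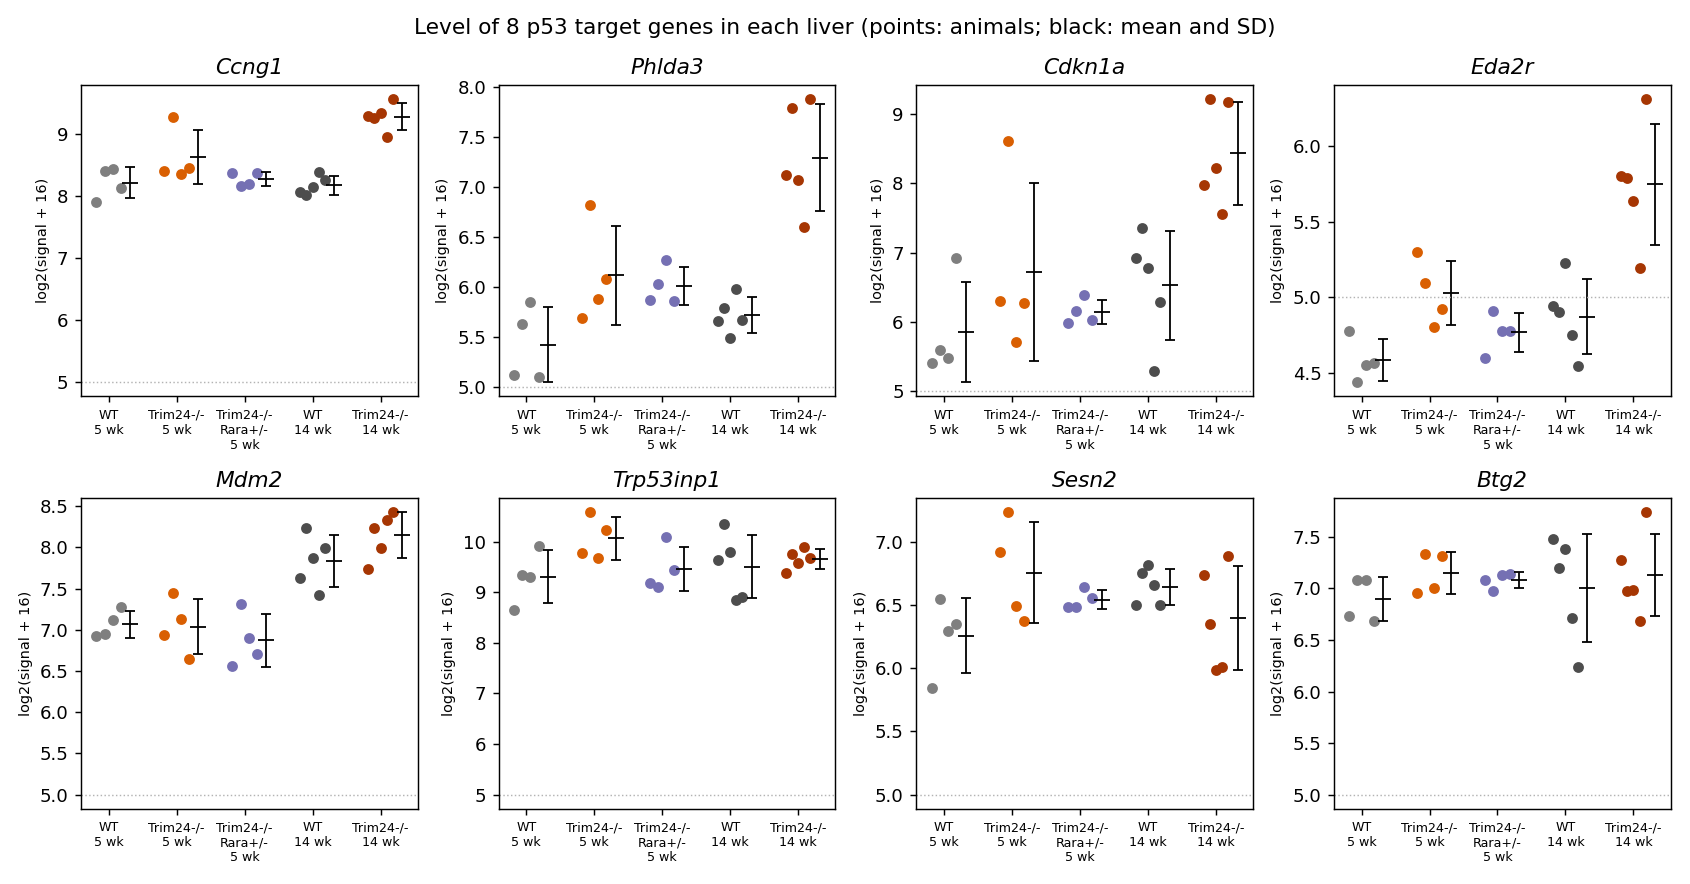
Level of the 8 measured genes, log2(signal + 16), in each of the 22 livers (points), with the mean and SD of each group in black and the pseudocount level as a dotted line. At 14 weeks the 5 Trim24-/- livers stand above all 5 WT livers for Ccng1, Phlda3 and Cdkn1a, and at 5 weeks animal 6KO stands above the other Trim24-/- livers for Ccng1 and Cdkn1a.

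Probe by probe, 4 of the 16 probe sets were called higher and none lower at 14 weeks, against 0.102% of all probe sets called higher: 2 of Ccng1, 1 of Phlda3 and 1 of Cdkn1a. In all, 12 of 16 were positive. Where a gene has several probe sets, those of Ccng1 and Cdkn1a ran the same way, while those of Mdm2, Trp53inp1, Sesn2 and Btg2 did not. For Mdm2 the values were 0.31, 0.21 and -0.29, the last from a probe set that read 0.2 to 18.4 on all arrays.

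**Figure D2:**
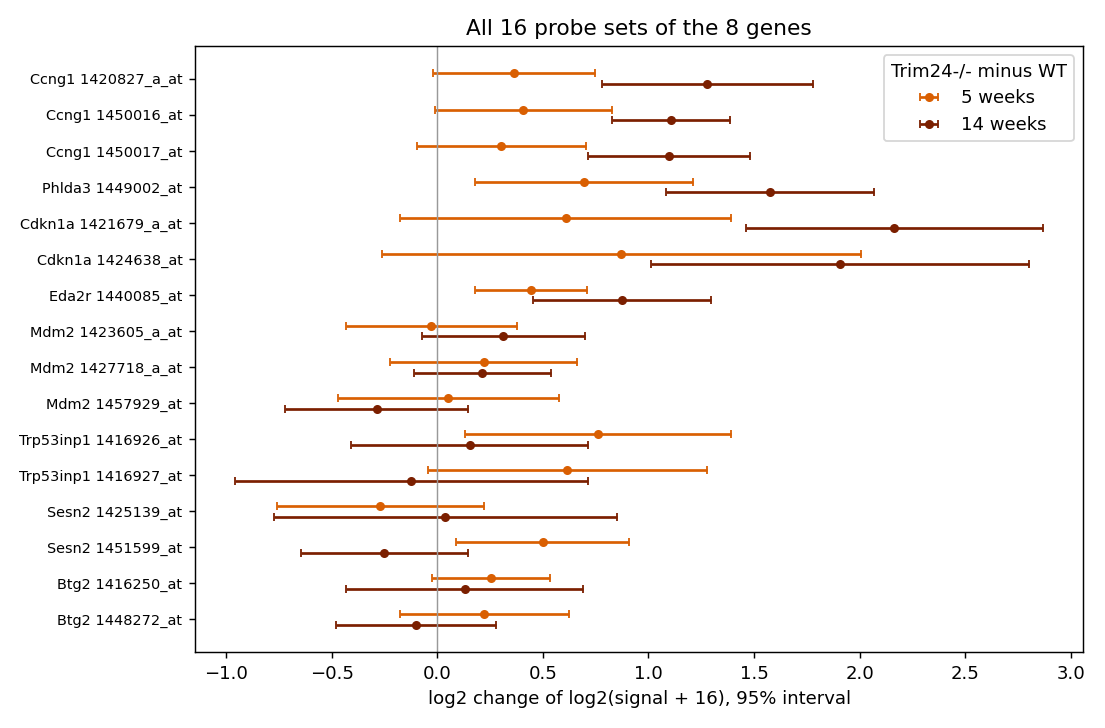
Change of log2(signal + 16), Trim24-/- minus WT, for each of the 16 probe sets at 5 weeks (orange) and 14 weeks (dark brown), with 95% intervals from limma. The probe sets of Ccng1, Phlda3, Cdkn1a and Eda2r lie to the right of 0 at 14 weeks, and those of Mdm2, Trp53inp1, Sesn2 and Btg2 straddle it.

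Other gene lists were measured in the same livers. All 11 macrophage markers were positive at 14 weeks (7 with unadjusted p under 0.05, 0 called by limma), with a summed signal of 3170 to 4242 in WT and 3690 to 6871 in Trim24-/- livers and none under 16 on any array. All 16 interferon-response genes were positive, 11 with an unadjusted p under 0.05 (8.23% of all genes) and 1 called (Usp18, 1.17 ± 0.21 SE, limma adjusted p = 0.0469). Of these 16, 4 did not overlap between the groups, with Trim24-/- higher, against 1.07% of all genes. Cell cycle genes were mixed, 13 of 19 positive and 0 called by limma (4 with an unadjusted p under 0.05). Of 10 fasting and glucocorticoid-response genes, 9 were negative (4 with an unadjusted p under 0.05, 0 called by limma, median -0.26). All 7 hepatocyte markers measured were negative (1 with an unadjusted p under 0.05, 0 called by limma, median -0.13). Sample liver_395M, the highest mutant for 6 of the 8 genes, also had the highest neutrophil marker level (mean log2 6.01, against 4.73 to 5.02 in the other mutants). It was also the highest mutant for the macrophage (mean log2 8.91, the others 8.06 to 8.37) and interferon lists (7.44, the others 6.79 to 7.13). It was the lowest for the hepatocyte (12.45, the others 12.55 to 12.86) and fasting lists (9.01, the others 9.32 to 9.79). The 5 neutrophil markers were dim, each under a signal of 16 on 10 to 20 of the 22 arrays. Without liver_395M, Ccng1 changed by 1.04 (limma adjusted p = 0.00609) and Phlda3 by 1.43 (limma adjusted p = 0.0218). The part of these lists in the changes of Ccng1 and Phlda3 was not tested.

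At 5 weeks, Trim24-/- livers compared with WT gave no call among the 8 genes. The median change was 0.47 (all genes -0.010), 7 of 8 were positive, and 4 had an unadjusted p under 0.05, against 10.8% of all genes. Over all genes 0.473% were called higher and 0.126% lower, and of probe sets 0.182% were called higher, with 0 of the 16 here. The groups did not overlap, with mutants higher, for 1 gene, Eda2r, against 3% of all genes.

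Eda2r at 5 weeks read 11.4, 5.74, 7.46 and 7.71 in WT animals 2WT, 44WT, 45WT and 90WT, and 23.3, 18.2, 12 and 14.3 in Trim24-/- animals 1KO, 6KO, 8KO and 37KO. All WT values lie below the pseudocount of 16, and 2 of the 4 mutant values do. The change was 0.44 ± 0.12 (SE; limma adjusted p = 0.168). The difference is small beside that at 14 weeks, but the interaction of genotype and age for Eda2r was 0.43 ± 0.24 (SE; limma adjusted p = 0.819).

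Ccng1 read 222, 321, 329 and 264 in the WT animals and 323, 601, 312 and 333 in the Trim24-/- animals at 5 weeks. Animal 6KO alone stood apart, and the other mutants fell among or just above the higher WT livers. The change was 0.41 ± 0.19 (SE; limma adjusted p = 0.474), and 0.19 without animal 6KO (limma adjusted p = 0.640).

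Phlda3 read 18.8, 33.3, 41.4 and 18.2 in WT and 35.5, 96.9, 42.8 and 51.8 in Trim24-/- livers. The lowest mutant overlapped the highest WT animal. The change was 0.69 ± 0.24 (SE; limma adjusted p = 0.278), and 0.46 without animal 6KO.

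Cdkn1a read 26.4, 32.4, 28.7 and 106 in WT and 62.5, 376, 36.5 and 61.5 in the mutants. Animal 6KO was high among mutants and animal 90WT among WT, and the groups overlapped through animal 90WT. The change was 0.87 ± 0.52 (SE; limma adjusted p = 0.581) and came to 0.24 without animal 6KO and 1.23 without animal 90WT.

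Of the stress and metabolic members, Trp53inp1 changed by 0.76 ± 0.29 (SE; limma adjusted p = 0.343) and Sesn2 by 0.50 ± 0.19 (SE; limma adjusted p = 0.342). The dimmer Sesn2 probe set went the other way, at -0.27 ± 0.23 (SE; limma adjusted p = 0.802 over all probe sets). Of the 16 probe sets, 14 were positive in this comparison. Btg2 changed by 0.25 ± 0.13 (SE; limma adjusted p = 0.509). Mdm2 stood at -0.03 ± 0.19 (SE; limma adjusted p = 0.974), with a 95% interval of 0.40 on either side. Animal 6KO was the highest mutant for 7 of the 8 genes, all but Eda2r. Its neutrophil marker level, over the same dim genes, was also the highest of the 4 (mean log2 5.98, against 4.65 to 5.15).

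**Figure D3:**
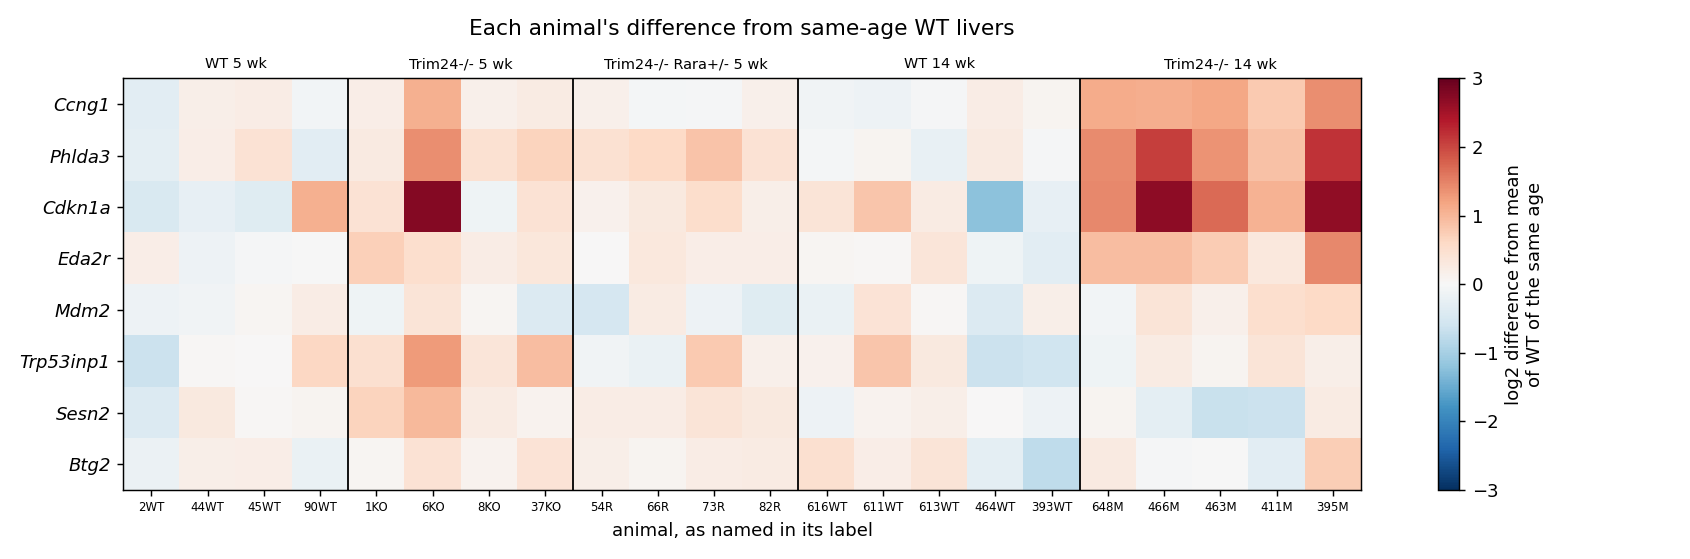
Difference of each liver from the mean of WT livers of its own age, on the log2(signal + 16) scale, for the 8 genes (red higher, blue lower), with animals in columns by group. Animal 6KO at 5 weeks resembles the 14-week mutants for Ccng1, Phlda3 and Cdkn1a.

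In the same 5-week comparison all 16 interferon-response genes were positive and 8 were called, with a mean log2 level of 6.69 to 7.11 in WT and 7.91 to 9.28 in Trim24-/- livers. Of 11 macrophage markers 10 were positive and 1 was called (Mpeg1, 1.69 ± 0.30 SE, limma adjusted p = 0.0275), and 18 of 20 immediate early genes were positive with 0 called by limma (6 with an unadjusted p under 0.05). Their part in the values of the 8 genes was not tested.

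Removing a single Rara allele on top of Trim24 loss gave Trim24-/- Rara+/- livers in which none of the 8 genes was called against WT, where 0.0495% of all genes were called higher and 0.0055% lower. Unadjusted p was under 0.05 for 1 of them, Phlda3, against 7.44% of all genes. This comparison shares its WT arrays with the preceding one. Phlda3 read 42.4, 49.2, 61.0 and 41.9 in animals 54R, 66R, 73R and 82R, just clear of the highest WT value of 41.4. Its change was 0.58 ± 0.24 (SE; limma adjusted p = 0.601), and it was the 1 gene of 8 without overlap, against 1.98% of all genes. Ccng1 read 314, 268, 274 and 312, within the WT range, for a change of 0.05 ± 0.19 (SE; limma adjusted p = 0.975). Cdkn1a read 47.5, 55.4, 67.3 and 49.2, between WT animal 90WT and the other WT livers, for a change of 0.29 ± 0.52 (SE; limma adjusted p = 0.939). The median change of the 8 genes was 0.18 (all genes -0.021).

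Set directly against Trim24-/- livers, the Trim24-/- Rara+/- livers gave no call either (0.0385% of all genes higher, 0.104% lower). All 8 changes were negative, where 47.3% of all genes were positive, with a median of -0.24 (all genes -0.011). This comparison shares its Trim24-/- arrays with that of Trim24-/- against WT, where 7 of 8 were positive. The signs in the 2 comparisons are therefore not independent. All 16 interferon-response genes were also negative (3 called lower), as were 16 of 20 immediate early genes. All 10 fasting and glucocorticoid-response genes were positive. The part of these lists in the values of the 8 genes was not tested. None of the 8 genes had an unadjusted p under 0.05, against 11.5% of all genes. Trp53inp1 stood at -0.61 ± 0.29 (SE; limma adjusted p = 0.451), Ccng1 at -0.36 ± 0.19 (SE; limma adjusted p = 0.522) and Eda2r at -0.26 ± 0.12 (SE; limma adjusted p = 0.450). Cdkn1a stood at -0.59 ± 0.52 (SE; limma adjusted p = 0.735), and at 0.04 without animal 6KO. Phlda3 stood at -0.11 ± 0.24 (SE; limma adjusted p = 0.916), and at 0.12 without that animal. The median without animal 6KO was -0.043.

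**Figure D4:**
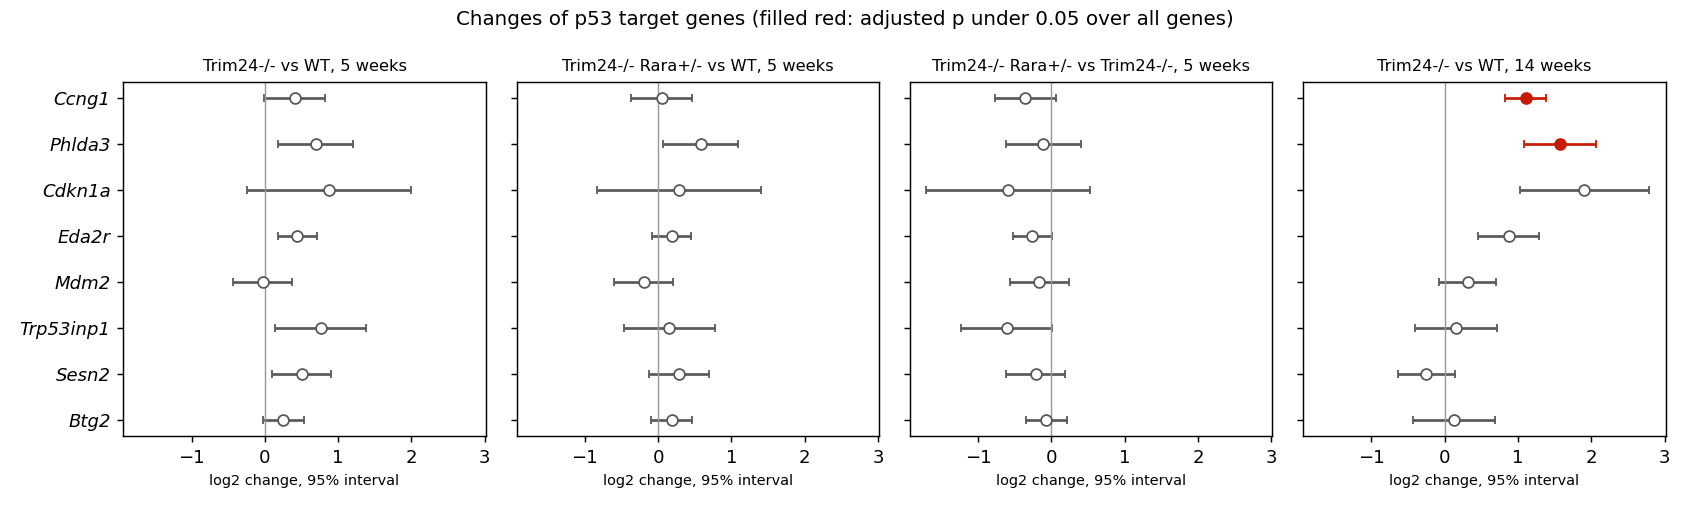
Change of log2(signal + 16) with 95% intervals from limma for the 8 genes in 4 comparisons, each against the group named last, with filled red points for an adjusted p under 0.05. Only Ccng1 and Phlda3 at 14 weeks are filled, at 1.11 and 1.58.

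Whether Trim24 loss acted differently at the 2 ages was tested as an interaction over all 22 arrays. Because age is tied to sex (below) and to median signal, this interaction cannot be told apart from one with either. No member was called by limma, 3 of the 8 had an unadjusted p under 0.05 against 6.39% of all genes, and 0.0275% of all genes were called positive and 0.0055% negative. The Ccng1 difference between ages was 0.70 ± 0.23 (SE; unadjusted p = 0.00677; limma adjusted p = 0.535), that of Phlda3 0.88 ± 0.34 (SE; limma adjusted p = 0.678) and that of Sesn2 -0.75 ± 0.27 (SE; limma adjusted p = 0.618). For Cdkn1a it was 1.03 ± 0.69 (SE; limma adjusted p = 0.869). The dimmer Sesn2 probe set gave 0.31 ± 0.47 (SE; limma adjusted p = 0.988 over all probe sets), opposite in sign to the brighter one. So calls at 14 weeks and none at 5 weeks do not show that the effect differs with age. Without animal 6KO the Ccng1 interaction was 0.91 (limma adjusted p = 0.0877).

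Between WT livers of 14 and 5 weeks, 1 of 8 genes was called higher, Mdm2, and none lower, against 19.7% of all genes called higher and 8.63% lower. Mdm2 read 105, 108, 123 and 139 at 5 weeks and 182, 286, 218, 156 and 239.6 at 14 weeks, without overlap (13.1% of all genes do not overlap in this direction). The change was 0.77 ± 0.19 (SE; limma adjusted p = 0.00439), and the second Mdm2 probe set gave 0.74 ± 0.18 (SE; limma adjusted p = 0.00578). With each array centred on its median, which moves the median of all genes from 0.13 to -0.20, Mdm2 changed by 0.44 (limma adjusted p = 0.0639) and was not called. That centring turns the split of all calls from 3576 higher and 1571 lower to 935 and 4901, and quantile normalisation gives 1843 and 1802.

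Over probe sets, 4 of the 16 were called higher with age, against 17.6% of all probe sets: a pair for Mdm2 and the dimmer ones of Btg2 (0.95 ± 0.18 SE, limma adjusted p = 0.000965) and Trp53inp1 (1.17 ± 0.37 SE, limma adjusted p = 0.0251). The brighter probe sets of Btg2 (0.11 ± 0.22 SE, limma adjusted p = 0.767) and Trp53inp1 (0.20 ± 0.29 SE, limma adjusted p = 0.653) did not pass. Age cannot be told apart from sex in these arrays: Xist read 948 to 2169 on every 5-week array and 13.4 to 44.5 on every 14-week array. Nor can age be told apart from the difference in median signal given above. Both patterns were shared by WT and mutant arrays of an age.

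Across the 5 groups, Ccng1 had mean signals of 274 ± 31.2 (SD, n = 5) in WT at 14 weeks, 284 ± 50.4 (SD, n = 4) in WT at 5 weeks, 292 ± 24.2 (SD, n = 4) in Trim24-/- Rara+/-, 392 ± 139 (SD, n = 4) in Trim24-/- at 5 weeks and 610.0 ± 92.4 (SD, n = 5) in Trim24-/- at 14 weeks. Neighbours in this order overlap in range, the last pair through animal 6KO. Phlda3 ran in nearly the same order, from 27.9 ± 11.4 (SD, n = 4) in WT at 5 weeks and 36.8 ± 6.74 (SD, n = 5) in WT at 14 weeks through 48.6 ± 8.88 (SD, n = 4) in Trim24-/- Rara+/- and 56.7 ± 27.6 (SD, n = 4) in Trim24-/- at 5 weeks to 149 ± 59.9 (SD, n = 5) in Trim24-/- at 14 weeks. Cdkn1a ran from 48.3 ± 38.3 (SD, n = 4) in WT and 54.8 ± 8.96 (SD, n = 4) in Trim24-/- Rara+/- at 5 weeks, through 86.4 ± 47.0 (SD, n = 5) in WT at 14 weeks and 134 ± 162 (SD, n = 4) in Trim24-/- at 5 weeks, to 367 ± 190.3 (SD, n = 5) in Trim24-/- at 14 weeks. For all 3 genes the 14-week mutants had the highest mean, and neighbouring groups overlapped in range.

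Eda2r had mean signals of 8.09 ± 2.39 (SD, n = 4) in WT, 11.3 ± 2.37 (SD, n = 4) in Trim24-/- Rara+/- and 16.9 ± 4.94 (SD, n = 4) in Trim24-/- livers at 5 weeks, and of 13.7 ± 5.21 (SD, n = 5) in WT and 39.4 ± 15.5 (SD, n = 5) in Trim24-/- livers at 14 weeks. In its means Mdm2 instead split by age, which here cannot be told apart from sex or median signal. Its mean signals were 104 ± 28.2 (SD, n = 4) in Trim24-/- Rara+/-, 118 ± 31.1 (SD, n = 4) in Trim24-/- and 119 ± 15.8 (SD, n = 4) in WT at 5 weeks against 216 ± 50.5 (SD, n = 5) in WT and 271 ± 53.1 (SD, n = 5) in Trim24-/- at 14 weeks. On this probe set no mutant liver at 5 weeks reached the mean of either 14-week group. Animal 6KO (158) was nevertheless above the lowest WT liver at 14 weeks (156). On the second Mdm2 probe set animal 6KO read 219, above the 14-week WT mean of 190. Trp53inp1 had its highest mean in Trim24-/- at 5 weeks, 1093 ± 336 (SD, n = 4), against 648.2 ± 234 (SD, n = 4) in WT and 716 ± 249 (SD, n = 4) in Trim24-/- Rara+/- of that age and 770.4 ± 344 (SD, n = 5) and 800.2 ± 108 (SD, n = 5) in WT and Trim24-/- at 14 weeks. Sesn2 had group means from 61.5 ± 14.9 (SD, n = 4) in WT to 95.2 ± 31.1 (SD, n = 4) in Trim24-/- at 5 weeks, and Btg2 from 104 ± 17.9 (SD, n = 4) in WT at 5 weeks to 129 ± 43.0 (SD, n = 5) in Trim24-/- at 14 weeks. The groups of Trp53inp1, Sesn2 and Btg2 with neighbouring means all overlapped.

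The members also varied together within groups to different degrees. As a description over 22 arrays, each taken as its deviation from its group mean, Ccng1 and Phlda3 had a Pearson r of 0.751 (0.645 without animal 6KO). Cdkn1a and Trp53inp1 had 0.680 (0.657 without it). Ccng1 and Cdkn1a had 0.439, which came to -0.056 without animal 6KO, so that pair rests on 1 liver. These arrays share scaling and, within an age, array-level signal.

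Among 8334 genes with a mean log2 level of 6 or more, the genes most like Ccng1 by the same measure were Plk2 (0.799), Mlec (0.757) and Phlda3 (0.751). Without animal 6KO these values were 0.648, 0.579 and 0.645. Plk2, a polo-like kinase, is itself on the list of further p53 targets. For Phlda3 they were Uhrf2 (0.780), Ccng1 (0.751) and Pigf (0.750), for Cdkn1a Tnk2 (0.858), Vmp1 (0.850) and Gfpt1 (0.836), and for Mdm2 Nol8 (0.747), Eif1ad (0.741) and Gdpd3 (0.717). For Trp53inp1 they were Cpeb2 (0.875), Arfgap3 (0.825) and Klf3 (0.823). For Sesn2 they were Sel1l (0.758), Ephx1 (0.756) and Rnf40 (0.737), where Ephx1, microsomal epoxide hydrolase, is also on that list. For Btg2 they were Slc43a2 (0.819), Tpm4 (0.815) and Appbp2 (0.784). Eda2r was too dim for this comparison.

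A list of 47 further genes described as p53 targets, of which 43 were measured, gave no call in any of the 3 genotype comparisons at 5 weeks, in that at 14 weeks or in the interaction. At 14 weeks its split was even, 22 positive and 21 negative, with a median of 0.020. Of the 43, 11 had an unadjusted p under 0.05, against 8.23% of all genes. The smallest p belonged to Psrc1, a spindle protein, at 1.05 ± 0.21 (SE; limma adjusted p = 0.0793), with 6.85 to 30.0 in WT and 35.9 to 67.7 in Trim24-/- livers. Next was Zmat3, a zinc finger protein that binds RNA, at 0.78 ± 0.16 (SE; limma adjusted p = 0.0951), with 27.9 to 55.0 in WT and 69.0 to 120.3 in the mutants. Neither gene overlapped between the groups, and neither passed. Plk2, named above for its likeness to Ccng1, changed by 1.23 ± 0.28 (SE; limma adjusted p = 0.156), with overlap.

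At 5 weeks 28 of the 43 were positive in Trim24-/- against WT, with a median of 0.040 and 8 at an unadjusted p under 0.05, against 10.8% of all genes. The smallest p belonged to Steap3, a ferrireductase, at -0.45 ± 0.11 (SE; limma adjusted p = 0.120), and Polk, a translesion DNA polymerase, at 0.52 ± 0.14 (SE; limma adjusted p = 0.147). In Trim24-/- Rara+/- against WT, 21 were positive and 22 negative, 4 with an unadjusted p under 0.05 against 7.44% of all genes, led by Steap3 at -0.62 ± 0.11 (SE; limma adjusted p = 0.0978) and Ddit4, an mTORC1 inhibitor, at 1.17 ± 0.38 (SE; limma adjusted p = 0.462). Against Trim24-/-, 17 were positive and 26 negative, 8 with an unadjusted p under 0.05 against 11.5% of all genes, led by Lpin1, a phosphatidate phosphatase, at 1.82 ± 0.41 (SE; limma adjusted p = 0.0993) and Pml, the scaffold of PML bodies, at -0.68 ± 0.19 (SE; limma adjusted p = 0.169). In the interaction, 3 of the 43 had an unadjusted p under 0.05, against 6.39% of all genes, led by Zmat3 at 0.78 ± 0.22 (SE; limma adjusted p = 0.374) and Ephx1 at 0.54 ± 0.18 (SE; limma adjusted p = 0.543).

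**Figure D5:**
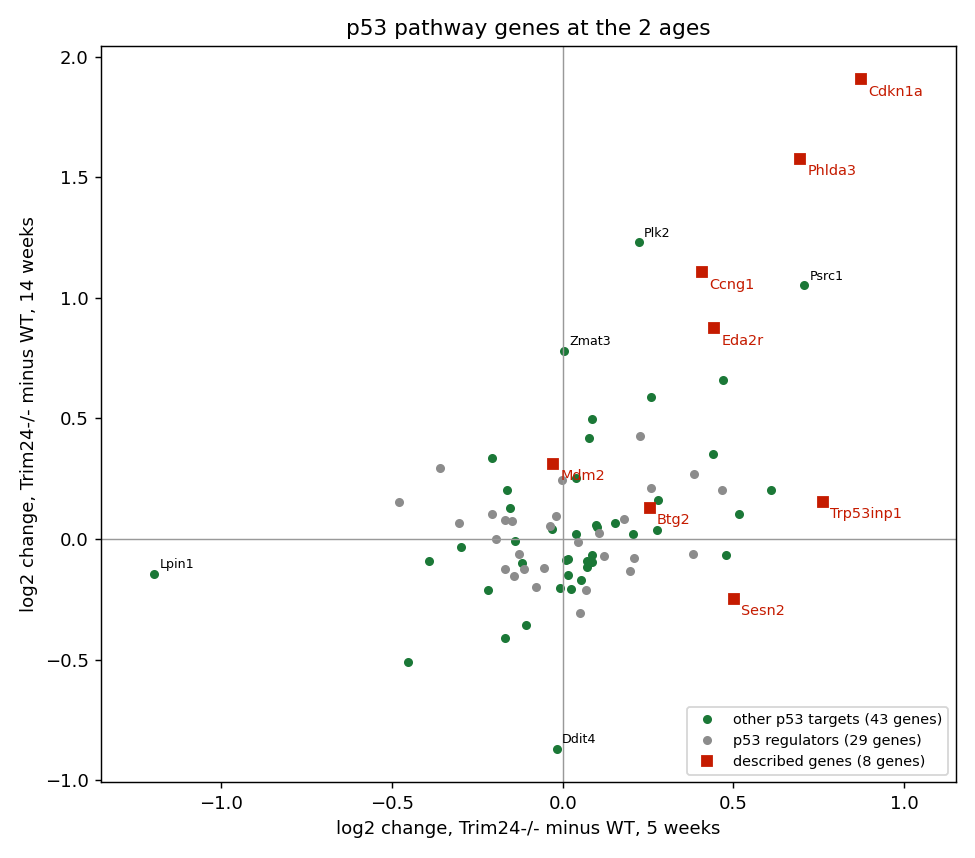
Change of log2(signal + 16), Trim24-/- minus WT, at 5 weeks (x axis) and 14 weeks (y axis) for the 8 genes described (red squares), 43 further p53 targets (green) and 29 genes that regulate p53 (grey). Ccng1, Phlda3, Cdkn1a and Eda2r stand in the upper right with Psrc1 and Plk2, and most other points lie near 0 at 14 weeks.

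Between WT livers of the 2 ages, 9 of the 43 further targets were called higher and 3 lower on the deposited scaling, against 19.7% and 8.63% of all genes, so both shares are near the background. Those with the smallest adjusted p were Pank1, a pantothenate kinase (-0.83 ± 0.15 SE, limma adjusted p = 0.000449) and Abhd4 (-0.68 ± 0.13 SE, limma adjusted p = 0.000974), both lower at 14 weeks. Polk (0.86 ± 0.17 SE), the cytokine gene Lif (0.79 ± 0.16 SE), Ptprv (0.75 ± 0.17 SE) and Pidd1, which scaffolds a caspase-activating complex (0.83 ± 0.18 SE), were higher. The limits on age given above hold for these too. Lif and Ptprv were also dim, under a signal of 16 on 14 and 8 of the 22 arrays.

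Of 30 genes that act on p53, 29 were measured, and again none was called in the genotype comparisons or in the interaction. Unadjusted p was under 0.05 for 4 in Trim24-/- against WT at 5 weeks, 3 in Trim24-/- Rara+/- against WT, 5 in Trim24-/- Rara+/- against Trim24-/-, 2 at 14 weeks and 2 in the interaction. The shares of all genes were 10.8%, 7.44%, 11.5%, 8.23% and 6.39% in the same order. At 14 weeks 16 were positive and 13 negative, and those with the smallest p were Trim24 itself (0.43 ± 0.16 SE, limma adjusted p = 0.457) and Sirt1, a deacetylase of p53 (-0.31 ± 0.13 SE, limma adjusted p = 0.576). At 5 weeks they were Trp53bp1, a DNA-damage adaptor (0.47 ± 0.13 SE, limma adjusted p = 0.180), and Kat5, an acetyltransferase (0.38 ± 0.12 SE, limma adjusted p = 0.230). In Trim24-/- Rara+/- against WT they were Cul9, a cullin that binds p53 (-0.51 ± 0.14 SE, limma adjusted p = 0.339), and Ppp1r13b, an ASPP-family partner of p53 (0.34 ± 0.13 SE, limma adjusted p = 0.568). Against Trim24-/- they were Trp53bp1 (-0.45 ± 0.13 SE, limma adjusted p = 0.195) and Daxx, a histone chaperone (-0.39 ± 0.13 SE, limma adjusted p = 0.254), and in the interaction Trp63 (0.66 ± 0.25 SE, limma adjusted p = 0.661) and Daxx (-0.44 ± 0.17 SE, limma adjusted p = 0.674). Trp63 was dim, under a signal of 16 on 19 of the 22 arrays. Mdm4, the partner of Mdm2, changed by 0.18 ± 0.13 (SE; limma adjusted p = 0.663) at 5 weeks and 0.09 ± 0.14 (SE; limma adjusted p = 0.923) at 14 weeks.

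With age in WT, 4 of the regulators were called higher and 5 lower on the deposited scaling, against the same 19.7% and 8.63% of all genes. The directions depend on that scaling, since median centring turned the calls over all genes from 3576 higher and 1571 lower to 935 and 4901. Trp53bp1 (-0.98 ± 0.15 SE, limma adjusted p = 9.9e-05), Hipk2, a p53 kinase (-0.57 ± 0.12 SE), Trim24 (-0.80 ± 0.19 SE) and Cop1, a ubiquitin ligase (-0.39 ± 0.09 SE) were lower at 14 weeks as deposited. Rchy1, another ubiquitin ligase of p53 (0.61 ± 0.13 SE), and Trp73, the p53 relative (0.53 ± 0.16 SE), were higher. Trp73 was dim, under a signal of 16 on 8 of the 22 arrays.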

How the data were processed

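Total liver RNA of 22 mice, amplified in successive rounds and biotin-labelled per the labels' protocols, was hybridised to 1 Affymetrix array per animal. The authors deposited linear intensity values for 45101 probe sets, scaled to a common trimmed mean (100.001 after removing 2% of values at each end). No source used here names the software. Platform annotation gave 1 symbol for 34958 probe sets, several for 932 and was silent on 9211. The probe set with the highest mean stood for each of 18194 genes (9012 have several). A pseudocount of 16 was added before log2.

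Changes were tested with limma 3.58.1 (lmFit and eBayes) in R 4.3.3: 12 arrays in 1 fit at 5 weeks, 10 at 14 weeks, and all 22 for the interaction and the ages. P-values were adjusted by Benjamini-Hochberg over all genes (threshold 0.05) or all probe sets. The fits were tested on simulated data. The described genes and all gene lists were chosen with earlier results of these data known. From the lists, called genes were named, up to 6 by adjusted p, or else the pair with the smallest p. A few others (Plk2, Mdm4) were chosen after their values were seen. For each member of mean log2 level 6 or more, the 3 genes with the highest correlation of deviations from group means were named. Alternatives covered scaling, pseudocount, dim genes, probe sets, variance model and arrays. No batch label is given in the sources used here. The number of arrays limits the precision.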

Additional observations from a re-analysis of the deposited data

Results flagged for a closer look

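Among 40 groups of 4 or 5 livers (8 genes in 5 groups), the highest or lowest animal stood apart from the rest by Dixon's ratio in 2, where chance alone flags about 5% of groups. At 5 weeks Trim24-/- animal 6KO had a Ccng1 signal of 601 against 312 to 333 in the other mutants, and its gap was 0.897 of the range on the log2 scale. At the same age WT animal 90WT had a Cdkn1a signal of 106 against 26.4 to 32.4 in the other WT livers, a gap of 0.874 of the range.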

How the results depend on the processing

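At 14 weeks the number of members called ran from 2 to 3 over 20 alternatives, and Ccng1 (0.99 to 1.19, limma adjusted p 0.000448 to 0.0158) and Phlda3 (1.04 to 1.91, limma adjusted p 0.000622 to 0.0402) were called in each. Cdkn1a was called with brighter genes only (limma adjusted p = 0.0409) and with the mean of probe sets. In the 3 comparisons at 5 weeks and in the interaction no member was called under any alternative run. Between WT ages the count was 0 with median centring (median of the members -0.036) and 2 with the mean of probe sets, Mdm2 and Btg2 (0.53, limma adjusted p = 0.0308). Signs turned only for changes that had missed the threshold, and the cause was not tested. For Mdm2 at 5 weeks the values were 0.024 with median centring, 0.082 with the mean of probe sets and 0.0011 with array weights. With the mean of probe sets Ccng1 in Trim24-/- Rara+/- against WT was -0.019 and the Mdm2 interaction -0.0019. Without animals 90WT and 6KO the Trim24-/- Rara+/- against Trim24-/- values were 0.122 for Phlda3 and 0.043 for Cdkn1a, and the Btg2 interaction was 0.0059. Between WT ages, median centring gave -0.033 for Phlda3, -0.12 for Trp53inp1, -0.038 for Eda2r and -0.22 for Btg2, and quantile normalisation gave -0.0032 for Eda2r. Leaving out 1 animal at a time gave, at 5 weeks against WT, -0.16 to 0.10 for Mdm2 in Trim24-/- and -0.053 to 0.13 for Ccng1 and -0.064 to 0.36 for Trp53inp1 in Trim24-/- Rara+/-. Against Trim24-/- it gave -0.26 to 0.12 for Phlda3 and -0.92 to 0.043 for Cdkn1a. At 14 weeks it gave -0.010 to 0.36 for Trp53inp1 and -0.062 to 0.25 for Btg2, and between WT ages -0.15 to 0.032 for Ccng1, -0.016 to 0.41 for Trp53inp1 and -0.014 to 0.30 for Btg2. The filter on brighter genes leaves Eda2r untested. The sample titles name no litter or other pairing of the animals, so no paired analysis was run. Signals near the pseudocount, as for Eda2r, limit what fold changes can show.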
